A study of Mus musculus with 8 samples.

Results

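The array OSKH 3, one of 4 expression arrays of OSKH induced pluripotent stem cells (iPSCs), was compared with every other iPSC array of the series. A gene or unnamed probe was a member if its level on OSKH 3 lay above the highest, or below the lowest, of the other 6 iPSC arrays by at least 0.7 log2 units. By that rule 81 of 22685 measured features (0.357%) were members, 42 of them higher and 39 lower on OSKH 3. The levels on OSKH 3 chose the members, so their differences from the other arrays are given as descriptions with no test, and OSKH 3 is a single array without a repeat.

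The series holds 8 one-colour Agilent mouse arrays of total RNA labelled with Cy3: 4 of OSKH iPSCs, 3 of OSK iPSCs, which serve as the controls, and 1 of embryonic stem cells (ESC, titled B6J-23). The labels give all cells as C57BL/6J and undifferentiated. OSK is taken here to mean the reprogramming factors Oct4, Sox2 and Klf4, and H to mean H1foo, the linker histone of the oocyte, although the labels do not spell the letters out. The labels give no vector, culture condition, oxygen level or passage, and leave unsaid whether the numbered arrays stand for different clones, lines or merely dishes, so the spread within a group may be technical. A level is the log2 processed signal of a probe after subtraction of the 75th percentile found on that array. A level of 0 therefore equals that percentile, and levels are compared between arrays and never between genes.

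Cells sense oxygen largely through the hypoxia-inducible factors (HIFs). When oxygen is present, prolyl hydroxylases mark the HIF alpha subunits for capture by the von Hippel-Lindau protein and destruction, and when it is short, the stabilised alpha subunit pairs with Arnt, binds a short core motif and switches on genes of glycolysis, lactate export, mitochondrial remodelling, mitophagy and angiogenesis. One of the hydroxylases, Egln3, is itself a HIF target and so forms a feedback loop. Mouse pluripotent cells are known for high glycolysis also at normal oxygen.

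A group of 7 of the 42 higher members belonged to 5 lists of HIF regulators and HIF targets, 76 genes in all, and 0 of the 39 lower members did. They were Egln3, Ndufa4l2, Bnip3, Adm, Ankrd37, Slc16a3 and Pgm1, and each was well above background on all 7 iPSC arrays. The promoter windows of the 6 that have an entry in RefSeq's promoter table are printed because all 6 hold a HIF core motif. Each window is the 250 bases before the annotated start, written 5′ to 3′ on the strand of the gene in build GRCm38.p6, with the HIF core motifs in capitals. The motif searched first was ACGTG, which reads CACGT on the opposite strand. The motif searched beside it was GCGTG, which reads CACGC on the opposite strand. The windows are chr12:54203875-54204124 for Egln3 (minus strand), chr7:138909507-138909756 for Bnip3 (minus strand), chr8:45999851-46000100 for Ankrd37 (minus strand), chr11:120948817-120949066 for Slc16a3 (plus strand), chr7:110627407-110627656 for Adm (plus strand) and chr4:99929201-99929450 for Pgm1 (plus strand).
Egln3: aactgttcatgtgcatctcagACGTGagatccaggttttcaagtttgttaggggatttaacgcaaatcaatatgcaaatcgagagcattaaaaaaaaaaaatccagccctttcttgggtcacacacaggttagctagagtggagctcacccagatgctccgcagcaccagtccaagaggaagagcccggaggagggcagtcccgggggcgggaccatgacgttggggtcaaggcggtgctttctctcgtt
Bnip3: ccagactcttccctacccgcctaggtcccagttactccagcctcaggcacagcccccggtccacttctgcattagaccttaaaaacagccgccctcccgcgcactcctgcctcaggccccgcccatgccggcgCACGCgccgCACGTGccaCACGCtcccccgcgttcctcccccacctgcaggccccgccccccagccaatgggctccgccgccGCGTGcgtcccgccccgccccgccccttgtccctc
Ankrd37: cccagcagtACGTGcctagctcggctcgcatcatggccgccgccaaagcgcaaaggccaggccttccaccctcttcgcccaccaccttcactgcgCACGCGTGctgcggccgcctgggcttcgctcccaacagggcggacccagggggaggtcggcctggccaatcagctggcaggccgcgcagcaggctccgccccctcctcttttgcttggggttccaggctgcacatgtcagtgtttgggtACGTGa
Slc16a3: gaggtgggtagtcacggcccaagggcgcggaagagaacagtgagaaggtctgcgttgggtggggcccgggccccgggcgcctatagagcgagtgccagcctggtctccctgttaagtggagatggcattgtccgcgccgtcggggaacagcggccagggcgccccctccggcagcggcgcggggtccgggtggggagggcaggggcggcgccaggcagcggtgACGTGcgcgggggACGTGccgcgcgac
Adm: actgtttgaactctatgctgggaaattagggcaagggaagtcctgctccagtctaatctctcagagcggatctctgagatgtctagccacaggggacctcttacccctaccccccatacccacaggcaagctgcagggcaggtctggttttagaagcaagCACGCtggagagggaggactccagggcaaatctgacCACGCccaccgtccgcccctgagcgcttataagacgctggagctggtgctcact
Pgm1: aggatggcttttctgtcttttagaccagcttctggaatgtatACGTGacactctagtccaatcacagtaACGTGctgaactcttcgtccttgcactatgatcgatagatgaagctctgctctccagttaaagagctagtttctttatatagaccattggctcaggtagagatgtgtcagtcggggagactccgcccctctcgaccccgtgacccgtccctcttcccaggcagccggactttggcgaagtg

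The window of Bnip3 held 5 matches, counted on both strands with overlapping ones included, and that of Ankrd37 held 4, the nearest beginning 6 bases before the start. In Slc16a3 both ACGTG motifs lay close together, beginning 27 and 14 bases before the start. Egln3 had a single ACGTG, which began 229 bases before the start. Adm held CACGC alone, at 90 and 54 bases before the start, and no ACGTG in this window. Over all 32851 promoter windows of the table, 38.6% held either motif and 16.6% held ACGTG on either strand. Of the 45 windows of the 34 named higher members with an entry, 25 (55.6%) held either motif and 15 (33.3%) held ACGTG. Of the 21 windows of 13 named lower members, 10 (47.6%) held either motif and 2 (9.52%) held ACGTG. Among the 71 measured genes of the HIF lists, 60 had windows, and 61 of those 83 windows (73.5%) held either motif. A match is a run of letters and not a shown binding site.

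As background for these counts, 0.185% of all features lay above all other iPSC arrays by the rule and 0.172% lay below. OSKH 3 was the highest of the 7 iPSC arrays on 16.3% of features by any gap, and the lowest on 11.5%. The same rule applied in turn to each other iPSC array picked out more features on most of them: 834 for OSKH 1, 655 for OSKH 4, 178 for OSK 2 and 171 for OSK 1. It picked out fewer for OSK 3 (50) and OSKH 2 (40). OSKH 3 was thus not the most divergent array by number. The count for OSKH 3 depends on the arrays that set the range, and leaving an array out can only keep or raise it. Without OSKH 2, 119 features lay above and 71 below. Without OSKH 4 the counts were 91 and 62, and without OSK 3 they were 64 and 54. Subtracting the median of each array in place of the 75th percentile gave 34 higher and 47 lower.

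**Figure D1:**
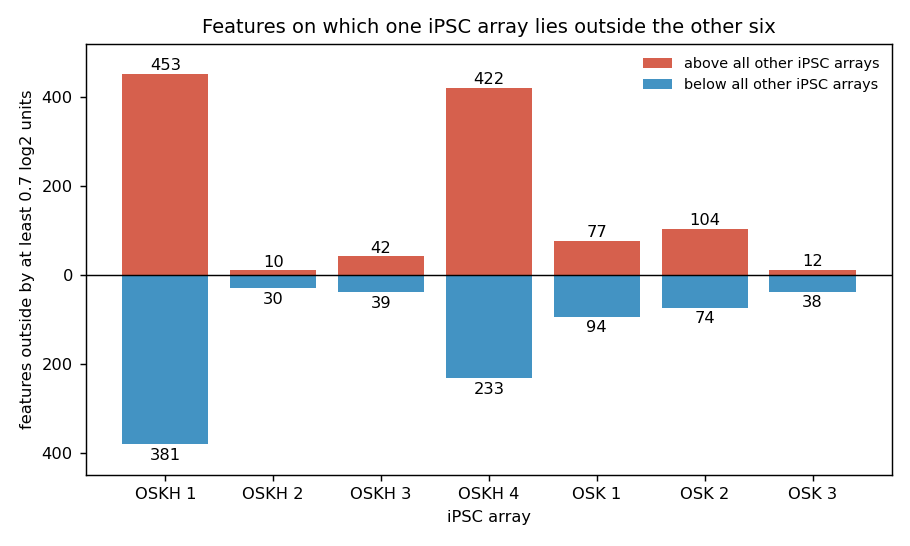
Number of features (bars, by direction) on which each of the 7 iPSC arrays lay above (red, upward) or below (blue, downward) all the other iPSC arrays by at least 0.7 log2 units. OSKH 3, with 42 and 39, stands between the arrays with few such features and OSKH 1 and OSKH 4 with far more.

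Technical values of OSKH 3 differed from those of the other arrays. It had the largest share of probes well above background, 59.0% against 51.4% to 55.4%, and the lowest signal counted as well above background on it was 16.2, against 21.5 to 28.3 elsewhere. These dim-end values touch the 12 higher members that were not measured on all 7 iPSC arrays, and the 8 lower members that were not well above background on OSKH 3. ESC and OSKH 1 to 3 shared the first row of the slide, and OSKH 4 and the OSK arrays the second. The part of slide row in the differences of OSKH 3 was not tested, and values against OSKH 1 and 2 alone are given for several lists. In the comparison of OSKH with OSK, slide row was fitted as a block in an alternative. After another background correction (normexp), which shrinks differences between dim probes, all 42 higher members remained the outermost value, 16 of them by at least 0.7, and all 7 HIF-list members were among those 16. Of the lower members, 38 of 39 remained outermost, 8 of them by at least 0.7.

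The defining markers of pluripotent cells were present. Pou5f1, the Oct4 gene, stood at 6.27 on OSKH 3 and between 6.09 and 6.25 on the other iPSC arrays. Nanog stood at 1.91 on OSKH 3 within a range of 1.33 to 2.28 on the others, and Sox2 at 3.14 within 2.96 to 3.61. OSKH 3 was the highest array for 1 of the 23 measured pluripotency factors and the lowest for 1, and 0 of the 23 were members. The median difference of the list from the other OSKH arrays was -0.15, and 9 of the 23 lay above their mean. Differences were largest for Tbx3 (-0.95), Fbxo15 (-0.79), Nr0b1 (-0.78) and Klf5 (-0.75), and were -0.59 for Esrrb and -0.45 for Zfp42. Each of these genes was highest on OSKH 1. The mesendoderm gene T stood at 3.71 on OSKH 4 and between -2.68 and -1.22 on the other iPSC arrays. OSKH 4 enters every mean of the other OSKH arrays.

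Egln3, the HIF prolyl hydroxylase that HIF itself induces, stood at 1.47 on OSKH 3. It was at -0.10, 0.17 and -0.24 on OSKH 1, 2 and 4, at -0.95, -1.01 and -0.69 on OSK 1 to 3, and at -0.34 on ESC. The OSKH 3 value was the highest of the 8, and the 3 remaining OSKH arrays in turn lay above all 3 OSK arrays. OSKH 3 exceeded their mean of -0.05 (SD 0.21, n = 3) by 1.53, or 2.88-fold. The OSK mean was -0.88 (SD 0.17, n = 3). A further probe of Egln3 also lay outside on the same side.

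Ndufa4l2, a mitochondrial protein that lowers complex I activity in hypoxic cells, had the largest gap of all members. Its level was 1.42 on OSKH 3. It was at -2.24, -2.08 and -1.93 on OSKH 1, 2 and 4, at -2.64, -2.43 and -2.40 on OSK 1 to 3, and at -3.06 on ESC. The other 7 arrays lay close together at a low level, and OSKH 3 stood 3.35 above the highest iPSC array among them. Against the remaining OSKH mean of -2.08 (SD 0.15, n = 3) the difference was 3.51, or 11.35-fold, and it was 2.77 after normexp.

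Bnip3, a receptor on the outer mitochondrial membrane that recruits the autophagy machinery, stood at 5.25 on OSKH 3. It was at 4.06, 3.96 and 3.35 on OSKH 1, 2 and 4, at 3.78, 3.43 and 3.59 on OSK 1 to 3, and at 3.64 on ESC. OSKH 3 lay above all others, while the OSKH and OSK arrays otherwise overlapped. The difference from the other OSKH mean of 3.79 (SD 0.39, n = 3) was 1.46, or 2.74-fold. All 3 Bnip3 probes had OSKH 3 outermost on the high side. Its close relative Bnip3l, also a mitophagy receptor, differed by only 0.17 (3.95 on OSKH 3).

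The mitochondrial list had 9 of 10 genes measured, and OSKH 3 was the highest iPSC array for 7 (77.8%) and the lowest for 0. Its median difference from the other OSKH arrays was 0.22, against 0.03 over all features. Next to both members came Cox4i2, the hypoxic isoform of a cytochrome c oxidase subunit, at 0.48, and Fam162a at 0.46. Pdk1, the kinase that shuts pyruvate dehydrogenase, was within the range of the others, with 3.32 on OSKH 3 against 2.36 to 3.73. Mgarp, a mitochondrial transport protein also induced by low oxygen but not on the list, was named after its values were seen. It stood at 1.49 on OSKH 3, at 0.66, 0.63 and -0.04 on OSKH 1, 2 and 4, at 0.41, 0.48 and -0.03 on OSK 1 to 3, and at 0.81 on ESC, so OSKH 3 was again the highest.

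Adm, which encodes the vasodilator peptide adrenomedullin, stood at -0.81 on OSKH 3. It was at -2.84, -2.98 and -3.17 on OSKH 1, 2 and 4, at -3.33, -3.00 and -3.23 on OSK 1 to 3, and at -2.54 on ESC. OSKH 3 stood alone, and the spread of the 6 other iPSC arrays was small beside its gap of 2.03 to the nearest. The difference from the other OSKH mean of -3.00 (SD 0.17, n = 3) was 2.19, or 4.56-fold, falling to 1.46 after normexp.

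Ankrd37, a small ankyrin repeat protein and an established HIF target, stood at 0.86 on OSKH 3. It was at -0.44, -0.30 and -0.83 on OSKH 1, 2 and 4, at -0.49, -0.85 and -0.81 on OSK 1 to 3, and at -0.61 on ESC. The other arrays of both groups overlapped and OSKH 3 lay above them. The difference from the other OSKH mean was 1.38, or 2.60-fold.

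The list of secreted and signalling targets that holds both genes was mixed. OSKH 3 was the highest for 3 of its 15 measured genes, Adm, Ankrd37 and Ero1a, the last a disulfide-forming oxidase of the endoplasmic reticulum (difference 0.51). Vegfa, the angiogenic growth factor most often used as a sign of hypoxia, stood at 0.19 on OSKH 3 within a range of -0.43 to 1.09, and was 0.36 below the other OSKH mean. Ddit4, an inhibitor of mTOR signalling, and Stc2, a secreted glycoprotein, each differed by 0.61, and each was higher on OSKH 1 than on OSKH 3.

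Slc16a3, the transporter that exports lactate, stood at 5.90 on OSKH 3. It was at 3.73, 5.16 and 4.79 on OSKH 1, 2 and 4, at 3.90, 4.02 and 4.85 on OSK 1 to 3, and at 5.05 on ESC. The highest array was OSKH 3, but the others were widely spread, so the difference of 1.34 from the other OSKH mean goes with an SD of 0.74 (n = 3). Pgm1, which interconverts glucose phosphates at the entry to glycogen, stood at 4.55 on OSKH 3. It was at 3.55, 3.77 and 3.57 on OSKH 1, 2 and 4, at 3.63, 3.60 and 3.82 on OSK 1 to 3, and at 3.81 on ESC. Here the other arrays were tight (SD 0.12 over the other OSKH, n = 3) and OSKH 3 stood 0.92 above their mean.

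The glycolysis list differed as a group by small amounts. Of its 26 genes, all measured, OSKH 3 was the highest iPSC array for 15 (57.7%) and the lowest for 1, and it lay above the other OSKH mean for 23. The median difference was 0.30, and it was 0.28 against OSKH 1 and 2 alone and 0.34 against OSK. After both members, the largest differences were those of the glucose transporter Slc2a1 (0.76), the phosphofructokinase Pfkl (0.76) and the phosphoglycerate kinase Pgk1 (0.76), followed by the isomerase Tpi1 (0.71). Pgk1 stood at 7.37 on OSKH 3 and between 6.47 and 6.87 on the other iPSC arrays. The gene lowest on OSKH 3 was Hk2, the inducible hexokinase, at 3.20 on OSKH 3 and 3.30 to 3.74 on the others.

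**Figure D2:**
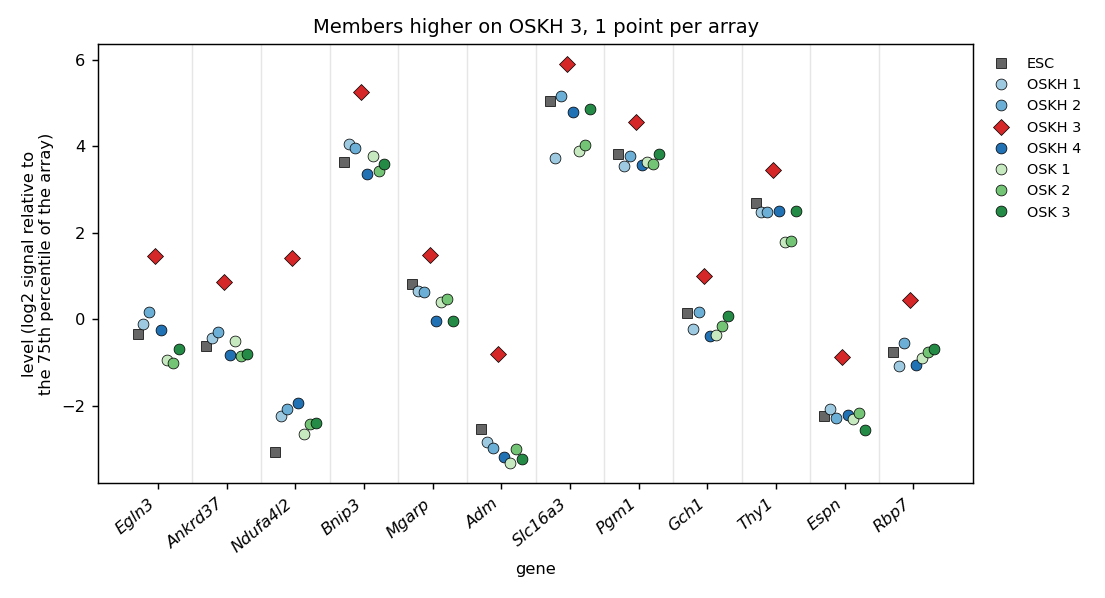
Level of 12 higher members (vertical axis, log2 signal above the 75th percentile) on each of the 8 arrays, 1 point per array, with OSKH 3 as red diamonds and ESC as grey squares. OSKH 3 is the top point for each gene, and the distance to the other points is largest for Ndufa4l2 and Adm.

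The HIF subunits themselves varied in both directions. Hif1a, the main oxygen-labile subunit, was the lowest on OSKH 3, at 1.59 against 1.80 to 1.95 on the other iPSC arrays. Epas1, which encodes HIF-2 alpha, was also the lowest, at 3.33 against 3.58 to 4.81. Its difference from the other OSKH mean was -0.59, and the OSK mean was higher still, at 4.63. Hif3a, a further alpha subunit, and Arnt, the partner of the alpha subunits, were the highest on OSKH 3 by a gap of 0.05 each. Their differences from the other OSKH mean were 0.30 and 0.13. Egln1, the principal HIF hydroxylase, stood at -2.56 on OSKH 3 and between -3.80 and -3.16 on the others. Its difference from the other OSKH mean was 1.00, but its gap of 0.60 to the highest of them kept it from being a member, and it was well above background on 6 of the 7. Over the 11 regulators the median difference was 0.03, the same as over all features, with OSKH 3 the highest for 4 and the lowest for 2.

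Of the list of collagen modification, acid balance and demethylase targets, 10 of 11 genes were measured, and OSKH 3 was the highest for 6 and the lowest for 0. The collagen prolyl hydroxylases P4ha2 and P4ha1 differed by 0.82 and 0.65. P4ha2 stood at 1.34 on OSKH 3 and 0.13 to 1.10 on the other iPSC arrays. Car9, the carbonic anhydrase widely used as a hypoxia marker, was within the range, at -1.96 on OSKH 3 against -2.25 to -0.95, and the demethylase gene Kdm3a was 0.36 below the other OSKH mean.

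Over the 5 lists together, 71 of 76 genes were measured. OSKH 3 was the highest iPSC array for 35 (49.3%) and the lowest for 3 (4.2%), beside the 16.3% and 11.5% over all features. The median difference from the other OSKH arrays was 0.26, beside 0.03 over all features, and it was 0.25 against OSKH 1 and 2 alone and 0.32 against OSK. With each gene set against its mean over the 6 iPSC arrays other than OSKH 3, the median of the 71 genes was 0.29 on OSKH 3 and between -0.05 and 0.05 on the other iPSC arrays, with ESC at 0.07. Each of those 6 arrays is part of its own reference, which pulls its value towards 0, and OSKH 3 is not. The 71 genes also include the 7 members, chosen because OSKH 3 is outermost. The lists were drawn up with results of these arrays known, so the counts describe OSKH 3 and do not support a pathway call. Genes of the respiratory chain had a median difference of 0.04 over 16 genes.

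**Figure D3:**
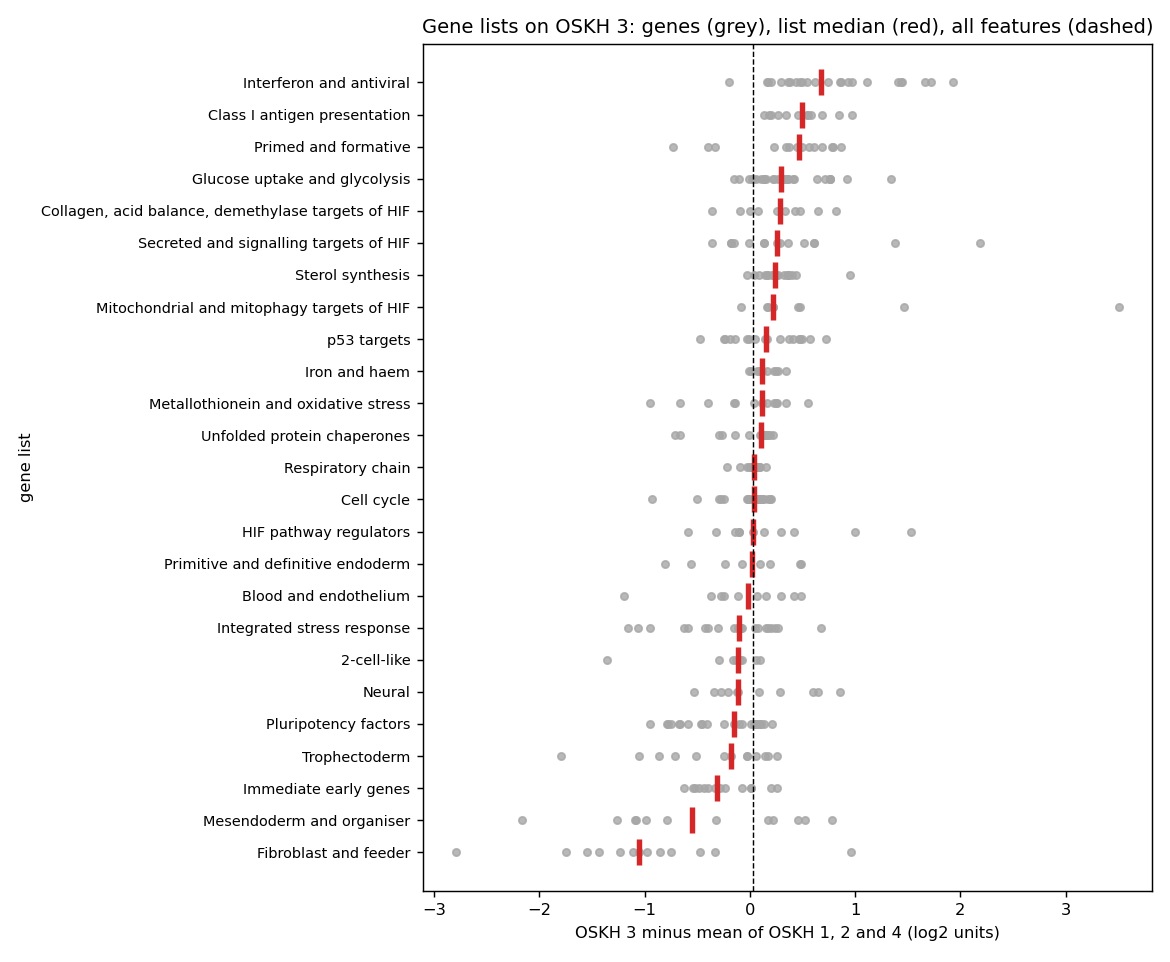
Difference between OSKH 3 and the mean of OSKH 1, 2 and 4 (horizontal axis, log2 units) for the measured genes of 25 gene lists (rows), with each gene in grey, the list median in red and the median of all features, 0.03, as a dashed line. The HIF target lists have medians between 0.22 and 0.30, with Ndufa4l2, Adm, Bnip3 and Ankrd37 far to the right of the other genes of their lists. Larger medians are those of the interferon (0.68), class I antigen presentation (0.50) and primed and formative (0.47) lists.

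The other higher members belonged to no HIF list. Thy1, a surface glycoprotein of fibroblasts and of some stem cells, stood at 3.44 on OSKH 3. It was at 2.49, 2.47 and 2.50 on OSKH 1, 2 and 4, at 1.78, 1.82 and 2.51 on OSK 1 to 3, and at 2.69 on ESC. The other OSKH arrays agreed to within 0.02 (SD, n = 3), and OSKH 3 was 0.96 above them, or 1.94-fold. Thy1 was on the list of fibroblast and feeder genes, and it was the sole gene of the 13 measured there with OSKH 3 the highest. The median level of that list was -0.68 on OSKH 3, between -1.17 and 0.31 on the iPSC arrays other than OSKH 4, 2.09 on OSKH 4 and 2.35 on ESC. The collagen gene Col1a2 was at -0.68 on OSKH 3 and 2.88 on OSKH 4.

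Espn, an actin-bundling protein, stood at -0.88 on OSKH 3 and between -2.56 and -2.07 on the 6 other iPSC arrays, a difference of 1.30 from the other OSKH mean. Rbp7, a cellular retinol-binding protein, stood at 0.44 on OSKH 3 against -1.09 to -0.55. Both were measured on every array, and for both OSKH 3 was clear of the rest. Gch1, the first enzyme of tetrahydrobiopterin synthesis, named after its values were seen, stood at 1.01 against -0.38 to 0.16.

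The remaining higher genes named by the rule were dim. Vav3, a guanine nucleotide exchange factor, was at -2.36 on OSKH 3 and -4.52 to -3.63 on the others, of which 2 of 3 OSKH and 1 of 3 OSK arrays were well above background. Ppp1r3g, which targets a phosphatase to glycogen, was at -2.09 against -5.61 to -3.25, with 1 of 3 OSKH and 0 of 3 OSK arrays well above background. Aoc3 and Wdr93 were also not measured on all arrays, and Gm3336 was measured on all, at -2.46 against -3.86 to -3.46. After normexp the differences of these 5 genes lay between 0.53 and 0.76. Over all 42 higher members the median gap was 0.83 and 12 gaps were at least 1. Of the 6 higher members with further probes, all 7 further probes had OSKH 3 outermost on the same side.

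Near the threshold, the last named genes inside were Proser2 (gap 0.704) and Smtnl2 (0.708), and the first outside were Lypd3 (0.697) and Hspb2 (0.697). Among the lower genes, Spink1 and Ceacam2 (0.739 each) lay just inside, and Glipr1 (0.697) and Gm35438 (0.682) just outside.

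The 39 lower members comprised 17 named genes and 22 unnamed probes, 10 of which carry the coordinates of an interval in place of a transcript name. Their median gap was 0.85. Further probes of the named lower genes mostly did not show the same: 1 of 4, that of Anxa1, had OSKH 3 outermost on the low side, while those of Zfp790, Ankrd42 and Ikbkg did not.

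Many lower members came from a small patch of the OSKH 3 array. A block of 11 rows by 5 columns of spots, out of 384 by 164, held 9 of the 39: the genes Chkb, Ankrd42, Cmtm3, Ikbkg, Dapk3, Zfp790 and Cd28 and 2 unnamed transcripts. The block was drawn around these members after their positions were seen, and the members are low by the rule, so the other spots in it were read alone. Of the 23 with a value that belonged to no member, 20 were below 0 when OSKH 3 was set against the mean of the other iPSC arrays, and their median was -0.58, beside 0.02 over all spots. On the other 6 iPSC arrays the same 23 spots had medians between -0.14 and 0.16. Counting further areas, 14 of 39 lower members and 0 of 42 higher members had neighbouring spots, within 3 rows and columns, whose median was at or below -0.2, beside 0.547% of all features. With the spots of all members left out of the neighbourhoods, the counts were 12 and 0. Without those 14, 25 lower members remained. The cut finds lowered neighbours only, so the 0 for higher members says nothing of raised ones, and no upward cut was tested. The largest neighbour median of a higher member was 0.14 (Gm3336). Such a median can miss a smaller run of raised spots. For Vav3, at row 138 and column 75, it was -0.09, but the spots on either side in that row stood at 1.03 and 0.5. The part of spot position in the value of Vav3 was not tested. The median over the higher members was 0.02, beside 0.022 over all features.

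**Figure D4:**
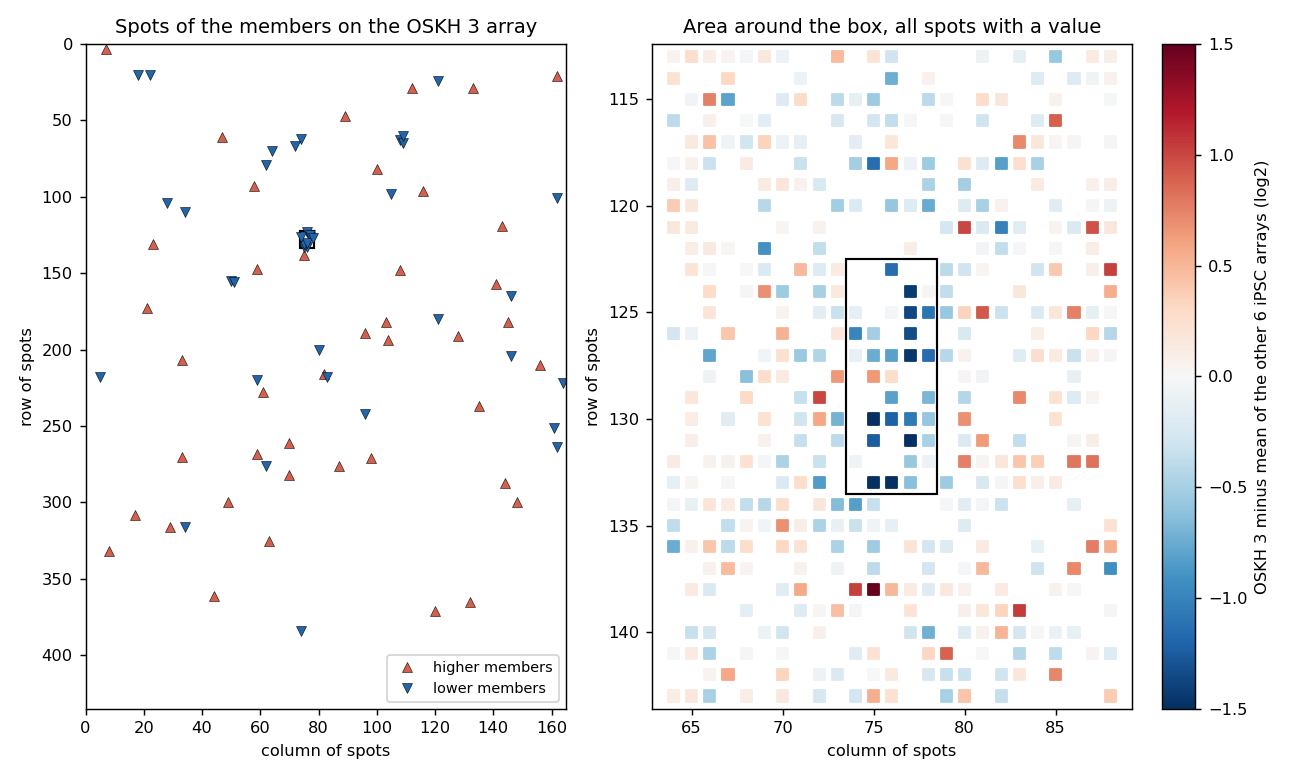
Left, row and column of the spot of each higher (red, upward) and lower (blue, downward) member on the OSKH 3 array, with the block of 11 by 5 spots boxed. Right, the surroundings of the box, with each spot that has a value coloured by its difference between OSKH 3 and the mean of the 6 other iPSC arrays (log2). Lower members crowd into the box, where 29 of 32 spots are below 0, 20 of the 23 that belong to no member among them.

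Zfp790, a zinc finger protein, is an example from the block. It stood at -2.65 on OSKH 3, at -0.69, -0.77 and -0.74 on OSKH 1, 2 and 4, at -0.89, -0.65 and -0.76 on OSK 1 to 3, and at -0.57 on ESC. OSKH 3 was apart by 1.92 from 3 OSKH arrays that differed by an SD of 0.04 (n = 3). Choline kinase beta (Chkb), the kinase Dapk3, Ankrd42, the NF-kappaB regulator Ikbkg and Cmtm3 lay in the same block, with differences of -1.18, -1.17, -1.21, -1.25 and -1.42. Cd28, a co-stimulatory receptor on T cells, was not well above background on OSKH 3 and was at least 2.1-fold lower there than on the other OSKH arrays. Usp32, a ubiquitin protease (-1.02), and Msln, the surface protein mesothelin (-2.50), lay elsewhere but also among lowered neighbours. After normexp the difference shrank to -0.45 for Ankrd42, -0.72 for Ikbkg, -0.56 for Cd28 and -1.27 for Msln.

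The lower members outside such areas included Emp1, Anxa1 and Lig1. Emp1, an epithelial membrane protein, stood at -2.58 on OSKH 3. It was at -1.19, -1.65 and 0.76 on OSKH 1, 2 and 4, at -1.39, -1.52 and -1.40 on OSK 1 to 3, and at 0.80 on ESC. The lowest array was OSKH 3 and the highest were OSKH 4 and ESC, so the difference of -1.88 from the other OSKH mean carries an SD of 1.28 (n = 3). Anxa1, a phospholipid-binding annexin, had the same order. It was at -2.26 on OSKH 3, at -0.64, -1.43 and 0.94 on OSKH 1, 2 and 4, at -0.77, -1.01 and -1.36 on OSK 1 to 3, and at 0.98 on ESC. The fibroblast and feeder list was high on those same arrays, OSKH 4 and ESC, and OSKH 3 was the lowest iPSC array for 3 of its 13 genes. The mesendoderm and organiser list was high on them too. Its median level was 3.15 on OSKH 4, 0.08 on ESC and between -2.38 and -1.24 on the remaining iPSC arrays. The part of the cells behind either list in the values of Emp1 and Anxa1 was not tested.

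Lig1, the DNA ligase that joins Okazaki fragments, stood at 5.17 on OSKH 3. It was at 6.05, 6.01 and 6.00 on OSKH 1, 2 and 4, at 5.97, 6.08 and 6.07 on OSK 1 to 3, and at 6.10 on ESC. The other 7 arrays lay within a narrow band and OSKH 3 was 0.85 below the other OSKH mean (SD 0.03, n = 3). The median difference of the 19 cell cycle genes on the list was 0.04, and no further probe of Lig1 was measured.

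Outside hypoxia, interferon genes were also high on OSKH 3, but not on OSKH 3 alone. OSKH 3 was the highest for 13 of 24 measured interferon and antiviral genes, with a median difference of 0.68 from the other OSKH arrays and 1.34 from OSK, and none was a member. Against OSKH 1 and 2, which shared its slide row, the median was 0.18. In the first slide row the median level of the list was 0.67 for ESC and 0.74, 0.97 and 1.17 for OSKH 1 to 3. In the second row it was -0.60 for OSKH 4 and 0.27, -0.78 and -0.27 for OSK 1 to 3. Slide row and cells cannot be told apart for these arrays. Genes of class I antigen presentation had a median difference of 0.50, and 0.55 against OSKH 1 and 2, with OSKH 3 the highest for 8 of 12. The median level of that list was 1.30 on OSKH 3 and as high on OSKH 4 (1.32), with 1.07 on OSKH 2, 0.15 on OSKH 1 and 0.19 to 0.44 on OSK. H2-K1, a classical class I heavy chain, stood at 4.18 on OSKH 3 and 2.69 to 3.75 on the other iPSC arrays. Genes of sterol synthesis had a median difference of 0.24 over 19 genes, with OSKH 3 the highest for 6, and 0 of the 23 measured genes of the integrated stress response were the highest there. Primed and formative pluripotency genes had a median difference of 0.47, with 0.61 against OSKH 1 and 2 and 0.42 against OSK. OSKH 3 was the highest for 3 of those 14 genes. The median level of that list was 2.78 on OSKH 3, 3.31 on OSKH 4 and 2.78 on OSK 3.

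OSKH and OSK arrays were then compared in limma with and without OSKH 3. With all arrays, 0 of 22685 features (0.0%) passed an adjusted p of 0.05 in limma with Benjamini-Hochberg adjustment, and 1470 had an unadjusted p under 0.05. With slide row as a block, 47 features passed (38 higher, 9 lower), 0 of the 81 members among them. Without OSKH 3, 0 features (0.0%) passed and 1090 had an unadjusted p under 0.05. Since OSKH 3 is outermost by the rule, leaving it out must lower the group difference of each higher member and raise that of each lower one, so the values are given for their size alone. The 42 higher members had a median OSKH minus OSK difference of 0.53 with OSKH 3 and 0.19 without it, beside -0.01 and -0.02 over all features. The 39 lower members had medians of -0.29 and -0.02.

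Among the HIF-list members, Egln3 kept most of its group difference. It was 1.21 with all 4 OSKH arrays and 0.83 without OSKH 3 (SE 0.15, limma adjusted p = 0.979, unadjusted 0.00158). On OSKH 4, a single array in the slide row of the OSK arrays, Egln3 stood at -0.24, and the highest OSK value was -0.69. Egln3 was not among the features that passed with slide row as a block. Ndufa4l2 went from 1.28 to 0.41, Adm from 0.73 to 0.19, Bnip3 from 0.55 to 0.19 and Ankrd37 from 0.54 to 0.20. Slc16a3 went from 0.63 to 0.30 and Pgm1 from 0.18 to -0.05. None of these passed the adjusted threshold in limma without OSKH 3.

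**Figure D5:**
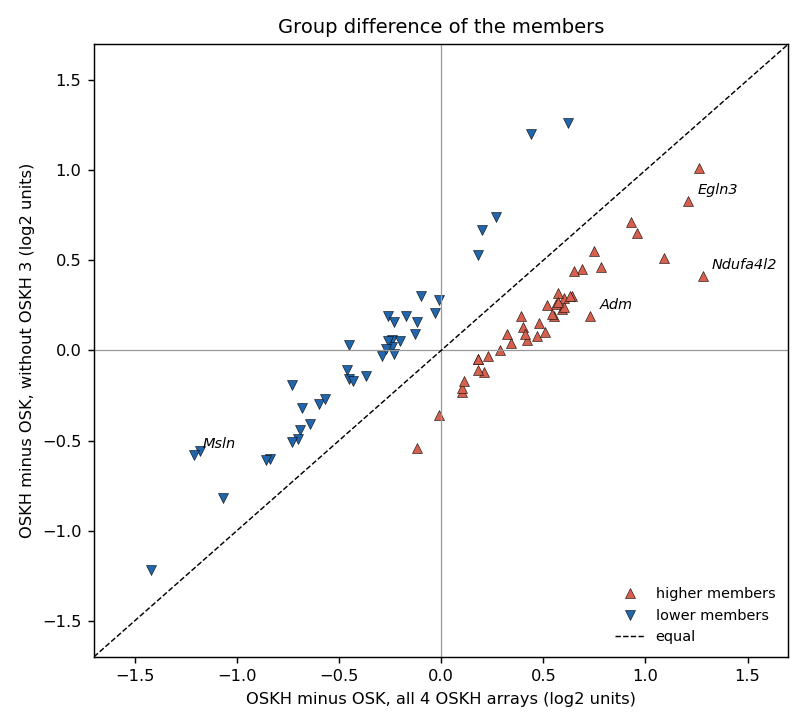
OSKH minus OSK difference of each member (log2 units) with all 4 OSKH arrays (horizontal) and without OSKH 3 (vertical), with higher members in red, lower members in blue and equality as a dashed line. By the rule higher members lie below the line and lower members above it. Egln3 keeps 0.83 of 1.21 while Ndufa4l2 keeps 0.41 of 1.28.

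The named genes whose levels most resembled those of Egln3 were found by Pearson's r over the 7 iPSC arrays among 13087 named genes well above background on all 7, as a description that rests largely on the high value of OSKH 3. The closest were Dhx58 (r = 0.991), Wfdc13 (0.986) and the member Gstm7 (0.981), followed by Coro1b, A630001G21Rik, Zfp944, Vegfb, H2-Q2, the member Fgg and Mgst3, the last at 0.959. Dhx58 stood at -1.90 on OSKH 3, at -2.71, -2.53 and -2.72 on OSKH 1, 2 and 4, and at -3.17, -3.28 and -2.92 on OSK 1 to 3. As with Egln3, OSKH 3 was the highest, the other OSKH arrays came next and the OSK arrays were lowest. Ndufa4l2, Bnip3 and Adm were not among the 10.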

How the data were processed

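RNA levels were measured on 8 arrays, 1 per sample. Per the file headers, the authors' deposited intensity of each spot is the processed signal of Agilent Feature Extraction 11.5.1.1, corrected for background within the array and not scaled between arrays. The deposited series table is on a log2 scale and differed from the log2 processed signal by a constant per array (within 0.01 in 99.7% of probes or more), with column medians from -3.71 to -3.60. The scale, the missing centring of genes and the direction are thus known, its software is not. The well-above-background, saturation and outlier flags, deposited as 0 or 1, were used as filters.

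From these files, 59305 non-control spots per array were used, outlier spots were left out, spots of a probe were averaged (55667 probes, 14 dropped, 0 saturated), and log2 signal minus the 75th percentile of the array was taken. Features were kept if 3 or more of the 8 arrays had them well above background, with the brightest probe for each gene. Accessions were matched to symbols in RefSeq's table of GRCm38.p6, which named 27644 probes and left 28023 with the file's identifier. The 75th percentile ran from 424 to 501, and the number of arrays limits the precision. A fold is called "at least" where the probe was not well above background in the dimmer group: it uses the lowest signal well above background on the array.

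The members, the 25 gene lists (408 genes) and the rules were chosen with earlier results of these data known. Named genes were the 12 members with the largest gaps in each direction (well above background on OSKH 3 for higher, on all 6 other iPSC arrays for lower), Ndufa4l2, Egln3 and Bnip3, members on a list, the 10 genes most like Egln3, and up to 4 non-members per HIF list with the largest differences, beside other list genes given for their known role and named after their values were seen. OSKH and OSK were compared with limma 3.58.1 (R 4.3.3, lmFit and eBayes, Benjamini-Hochberg adjustment over 22685 features, threshold 0.05). The fit was tested on simulated data. Deviations of same-numbered OSKH and OSK arrays, which also shared a slide column per the file headers, correlated at 0.49, 0.21 and 0.37, so the numbers were treated as pairs in an alternative with a replicate block. The mean spot signal was not used here, so normexp (offset 50) ran on the median spot and background signals. Other alternatives were quantile and median scaling, the deposited table, other filters, gaps and probe rules, and each array left out.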

Additional observations from a re-analysis of the deposited data

Results flagged for a closer look

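Among the 4 OSKH arrays, Dixon's ratio (the gap of the outermost array to the nearest over the range, critical value 0.829) was computed for 56 values, and 8 exceeded it. Chance passes about 1 group in 20, and the genes were picked because OSKH 3 is outermost, so their ratios are descriptions. OSKH 3 stood apart on the high side for Ndufa4l2 (0.917), Adm (0.858), Espn (0.857) and Thy1 (0.965). It stood apart on the low side for Zfp790 (0.959), Dapk3 (0.911) and Lig1 (0.948). The spots of Zfp790 and Dapk3 lay in the lowered block of the OSKH 3 array, and that of Lig1 did not. For the unfolded protein chaperone list (15 genes, each set against its mean over the iPSC arrays other than OSKH 3), the array apart was OSKH 1, with a median of -0.21 against 0.08, 0.08 and 0.09 (0.967).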

How the results depend on the processing

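The counts of 42 higher and 39 lower members became 16 and 8 after normexp, 358 and 173 with no filter on dim probes, 138 and 109 at a gap of 0.5, and 12 and 8 at a gap of 1. Leaving out each reference array in turn gave 43 to 119 higher and 44 to 71 lower. Dropping an array can only narrow the range, so these counts could stay or rise but not fall. Without features among lowered spots, an alternative chosen after seeing the data, 42 and 25 remained in number. Quantile scaling (40 and 51), the array median (34 and 47), probes measured on all 8 arrays (30 and 31), the mean of a gene's probes (42 and 30) and ESC added (41 and 36) stayed within 1.5 times. The hypoxia median of 0.26 became 0.21 after normexp, 0.32 against OSK and 0.19 to 0.25 with 1 OSKH array left out. For the 27 genes named by gap or list, 15 differences moved by at least the spread between replicates after normexp. With quantile scaling 1 moved, with the array median 2 and with the mean of a gene's probes 3, and 0 changed sign. With 1 OSKH array left out 0 moved, but that outcome was fixed in advance. Dropping 1 of 3 arrays cannot shift their mean by their own SD, and OSKH 3 is outermost by the rule. OSKH minus OSK gave 0 calls in limma and 0 with the replicate block, which changed no call (unadjusted p under 0.05: 1470 and 2324). It gave 47 with slide row as a block and 0 with each array left out in turn. Of the lower members, 8 of 39 were not well above background on OSKH 3.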
